A study of Mus musculus with 12 samples.

Results

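The genes described here are 9 members of the pathway by which aldosterone controls sodium uptake in the distal kidney tubule: Scnn1a, Scnn1b and Scnn1g, Nr3c2 and Hsd11b2, Sgk1 and Nedd4l, and Tsc22d3 and Fxyd4. They were taken by symbol, and all 9 were found among the 24452 symbols of the count table and passed the filter on low counts. RNA of kidney cortex was measured by stranded mRNA sequencing in 12 libraries, 3 in each of 4 groups of C57BL/6 mice labelled adult and male. GN_captopril and GN_water were mice with glomerulonephritis, an inflammation of the kidney's filtering units, that were given captopril or water, and Control_captopril and Control_water were mice without the disease, treated likewise. To induce it, mice were injected into the peritoneum for 6 weeks with 10 mg of apoferritin from horse spleen, a protein foreign to them, 5 times weekly, and with lipopolysaccharide as adjuvant, at 100 micrograms 3 times weekly. Controls received saline, and tissue was taken at 9 weeks. Captopril blocks angiotensin-converting enzyme and so the formation of angiotensin II, a main stimulus of aldosterone release, and the labels state neither its dose nor its route. Whether a library comes from 1 mouse or a pool is not stated, so the p-values measure the spread between these libraries.

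As background, the epithelial sodium channel (ENaC) lets sodium pass from the urine into the principal cells of the connecting tubule and collecting duct, where the sodium pump exports it to the blood. Aldosterone binds the mineralocorticoid receptor, which raises transcription of the channel and of SGK1, a kinase that phosphorylates the ubiquitin ligase NEDD4-2 and so keeps it from removing the channel from the membrane. The enzyme 11-beta-hydroxysteroid dehydrogenase type 2 inactivates corticosterone in the same cells, which leaves the receptor to aldosterone.

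Library totals were 14.2 to 22.8 M counts, where M stands for 1e6. The sex label did not hold in every group: Ddx3y, Kdm5d, Uty and Eif2s3y, which are Y-linked, summed to 121 to 144 CPM (counts scaled to a library total of 1e6) in GN_captopril and Control_water and to at most 0.101 CPM in GN_water and Control_captopril, where Xist, transcribed from the inactive X chromosome of female cells, had 181 to 375 CPM. Ren1, the renin gene, which angiotensin-converting enzyme inhibition is known to raise, averaged 543 ± 132 CPM in GN_captopril, 24.8 ± 4.90 in GN_water, 74.8 ± 10.1 in Control_captopril and 1339.9 ± 394 in Control_water (SD, n = 3 each), so among controls it was lower under the captopril label. Groups are named as labelled and none was moved. Whether the labels of Control_captopril and Control_water were exchanged cannot be settled from these files. GN averaged over both treatments would not change with such an exchange. The captopril average and the interaction would trade places apart from a factor of 2, Control_captopril against Control_water would change sign, and the pairs that are alike in sex-linked transcripts would be pairs of the same treatment. In GN_captopril against Control_water, and in GN_water against Control_captopril, the groups are alike in which sex-linked transcripts they carry. The averages over both treatments and over both disease states are balanced in the same sense. The level of Xist still differed in the second pair, with 181 to 212 CPM in GN_water and 314 to 375 in Control_captopril. Xist was called lower there (log2 fold change -0.78). The interaction of disease and treatment sets GN_captopril and Control_water against GN_water and Control_captopril, so it cannot be told apart from a difference between libraries with Y-linked transcripts and libraries with Xist. The 8 genes of the adrenal cortex list had 17, 351 and 1658 counts in the GN_captopril libraries and 137, 31 and 7011 in the Control_captopril libraries, against 21 to 30 in GN_water and 18 to 20 in Control_water, and 3 of the 5 tested were higher in captopril averaged over control and GN, against 3.17% of all genes. Cyp11b2, which makes aldosterone in the adrenal gland, had at most 11 counts in any library.

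Expression of the 9 genes differed widely within the cortex. Counts of a gene in a library ran from 141 for Nr3c2 to 4328 for Hsd11b2. On a scale that allows levels of different genes to be set side by side, CPM per kilobase of merged exons, the mean over the 12 libraries was 90.5 for Hsd11b2, 34.0 for Scnn1a, 20.2 for Sgk1, 20.1 for Scnn1b, 15.4 for Scnn1g, 14.1 for Fxyd4, 13.4 for Tsc22d3, 10.0 for Nedd4l and 1.83 for Nr3c2. The enzyme that protects the receptor was thus the most and the receptor itself the least abundant of these transcripts per length, while Sgk1 and Scnn1b had overlapping ranges (8.60 to 40.8 and 13.4 to 25.6 CPM per kilobase). The long annotated 5′ transcripts of Sgk1 and Nedd4l enter their exon lengths, so their values per kilobase depend on the annotation.

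**Figure D1:**
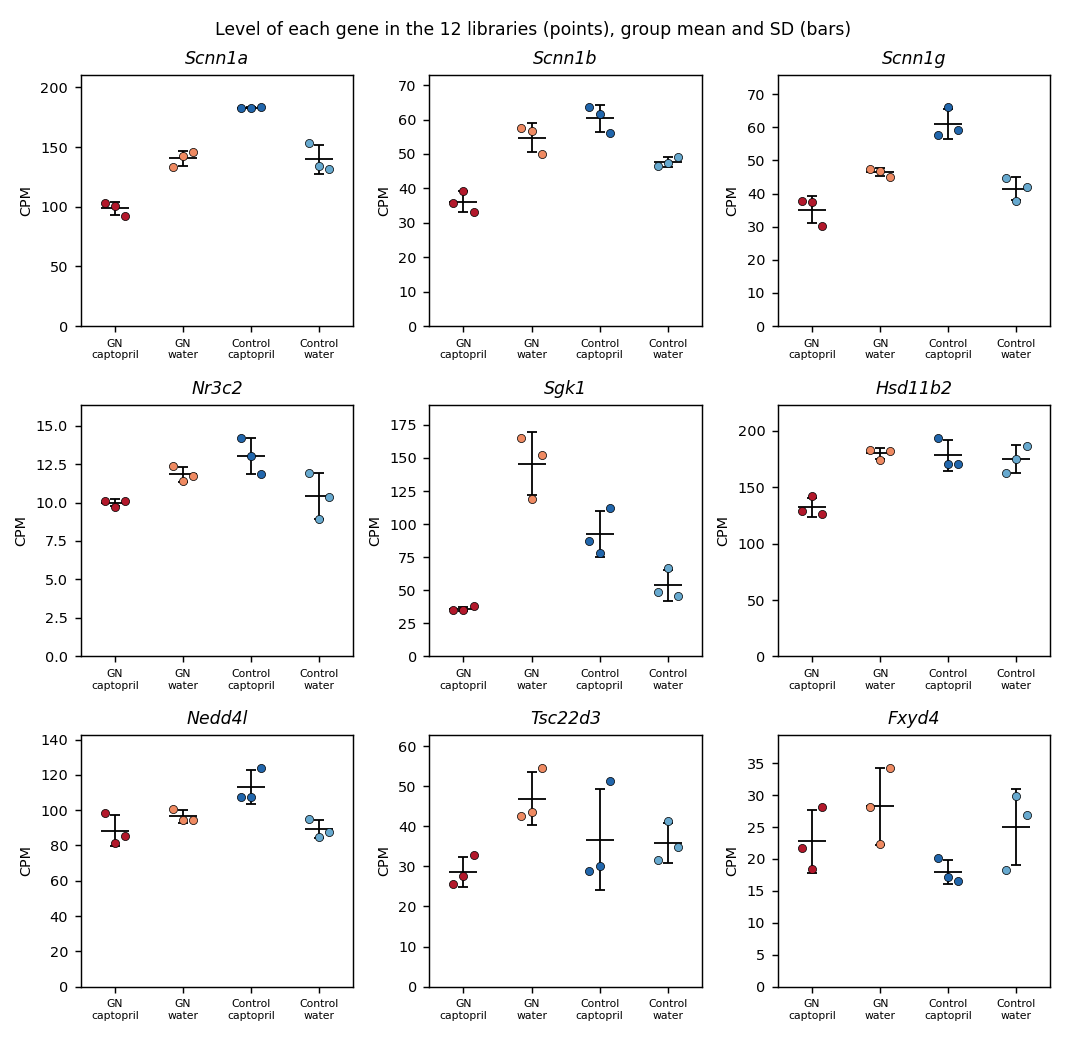
CPM (linear axis from 0) of each of the 9 genes in the 12 libraries, with 1 point per library and bars for the group mean ± SD, n = 3. The ENaC subunits Scnn1a, Scnn1b and Scnn1g were lowest in GN_captopril and highest in Control_captopril, whereas Sgk1 was highest in GN_water, with 119 to 165 CPM.

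The 3 ENaC subunit genes were lower in glomerulonephritis averaged over both treatments, which asks what the disease changed. Scnn1a (chromosome 6, 125320659 to 125344943, plus strand, GENCODE vM21 on GRCm38, which shares coordinates with mm10), the pore subunit alpha, had 103, 101 and 92.1 CPM in GN_captopril, 134, 142 and 146 CPM in GN_water, 183, 183 and 183 CPM in Control_captopril and 154, 134 and 132 CPM in Control_water. Every GN_captopril library lay below every Control_water library and every GN_water library below every Control_captopril library, but GN_water and Control_water overlapped. Its level fell by 0.44 ± 0.05 (SE) on the log2 scale in GN averaged over both treatments (adjusted p = 1.48e-05, edgeR quasi-likelihood test, Benjamini-Hochberg over all 14618 genes tested), and it was also lower in both pairs alike in sex-linked transcripts, with a log2 fold change of -0.50 ± 0.07 in GN_captopril against Control_water (adjusted p = 6.37e-04) and -0.38 ± 0.06 in GN_water against Control_captopril (adjusted p = 7.04e-04). Tissue RNA cannot tell apart fewer channel-bearing cells and less RNA per cell.

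Scnn1b and Scnn1g, the beta and gamma subunits, lie next to each other on chromosome 7 in the same direction (Scnn1g at 121734479 to 121768475 and Scnn1b at 121865038 to 121918514, both on the plus strand, 96562 bases apart). Scnn1b had 35.9, 39.3 and 33.2 CPM in GN_captopril, 57.5, 56.7 and 49.97 CPM in GN_water, 63.5, 61.5 and 56.0 CPM in Control_captopril and 46.6, 47.3 and 49.2 CPM in Control_water. GN_captopril was lowest without overlap, GN_water overlapped Control_captopril, and every GN_water library lay above every Control_water library. Averaged over both treatments Scnn1b fell by 0.27 ± 0.05 on the log2 scale in GN (adjusted p = 0.00203), with -0.40 ± 0.08 in GN_captopril against Control_water (adjusted p = 0.00600) and -0.14 ± 0.07 in GN_water against Control_captopril (adjusted p = 0.168). The difference between those last 2 values was not past the threshold (log2 difference -0.26 ± 0.11, adjusted p = 0.164).

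Scnn1g had 37.7, 37.3 and 30.4 CPM in GN_captopril, 47.5, 46.9 and 45.1 CPM in GN_water, 57.6, 66.0 and 59.0 CPM in Control_captopril and 44.7, 37.7 and 41.9 CPM in Control_water. Control_captopril stood above the other 9 libraries, and GN_captopril lay just below Control_water without overlap. GN_water lay above Control_water without overlap (log2 fold change 0.16 ± 0.09, adjusted p = 0.132). The log2 fold change of Scnn1g was -0.31 ± 0.06 in GN averaged over both treatments (adjusted p = 0.00187), -0.24 ± 0.09 in GN_captopril against Control_water (adjusted p = 0.0993) and -0.39 ± 0.08 in GN_water against Control_captopril (adjusted p = 0.00379). Thus each subunit fell on average, while only Scnn1a passed the threshold in both pairs, and for none of the 3 did the pairs differ past the threshold (adjusted p = 0.450, 0.164 and 0.492 for Scnn1a, Scnn1b and Scnn1g).

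Ratios between the subunits were taken within each library. Per kilobase of exon, Scnn1a exceeded Scnn1b 1.64 ± 0.0904 times in GN_captopril, 1.55 ± 0.180 times in GN_water, 1.82 ± 0.125 times in Control_captopril and 1.76 ± 0.192 times in Control_water (SD, n = 3 each), and GN_captopril lay below Control_captopril without overlap. Relative to Scnn1g it was 2.04 ± 0.132 times as abundant in GN_captopril, 2.19 ± 0.150 in GN_water, 2.18 ± 0.157 in Control_captopril and 2.45 ± 0.149 in Control_water, where GN_captopril lay below Control_water without overlap. The alpha transcript was therefore the most abundant of the 3 in all 12 libraries. Across the 12 libraries, which share their 4 group means, log2 levels of Scnn1a and Scnn1g had a Pearson r of 0.927, Scnn1a and Scnn1b 0.902, and Scnn1b and Scnn1g 0.892, given as a description.

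Of the genes for the receptor and its guard, Hsd11b2 fell in GN and Nr3c2 did not pass the test. Nr3c2 (chromosome 8, 76899442 to 77245012, plus strand), which encodes the mineralocorticoid receptor, had 10.1, 9.71 and 10.1 CPM in GN_captopril, 12.4, 11.4 and 11.7 CPM in GN_water, 14.2, 13.03 and 11.8 CPM in Control_captopril and 11.9, 8.92 and 10.4 CPM in Control_water. The GN and control groups overlapped in both pairs alike in sex-linked transcripts. Its log2 fold change in GN averaged over both treatments was -0.10 ± 0.08 (adjusted p = 0.335), and in GN_water against Control_water 0.18 (adjusted p = 0.181), or 0.29 without Control_water replicate 1 (adjusted p = 0.0414). At 141 to 317 counts per library it was the least covered of the 9.

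Hsd11b2 (chromosome 8, 105518755 to 105523988, plus strand), the corticosterone-inactivating enzyme, had 129, 142 and 126 CPM in GN_captopril, 184, 174 and 183 CPM in GN_water, 194, 171 and 170.4 CPM in Control_captopril and 163, 176 and 187 CPM in Control_water. GN_captopril stood below the other 9 libraries, which overlapped one another. Hsd11b2 fell by 0.19 ± 0.05 on the log2 scale in GN averaged over both treatments (adjusted p = 0.00946). This average joined a fall in GN_captopril against Control_water (log2 fold change -0.40 ± 0.07, adjusted p = 0.00332) and a value near 0 in GN_water against Control_captopril (0.01 ± 0.07, adjusted p = 0.912). By construction the difference between those 2 values is 2 times the captopril comparison averaged over control and GN, and it was past the threshold (log2 difference -0.41 ± 0.10, adjusted p = 0.0271). That call was lost without any 1 of Control_water replicates 2 and 3, GN_captopril replicate 1, Control_captopril replicates 2 and 3 and GN_water replicates 1, 2 and 3 (adjusted p = 0.0552 to 0.0977).

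Sgk1 had the widest range of the 9 genes and moved in opposite directions in the 2 pairs. Sgk1 (chromosome 10, 21882184 to 21999903, plus strand) encodes the kinase that restrains NEDD4-2. It had 34.9, 35.4 and 37.7 CPM in GN_captopril, 165, 119 and 152 CPM in GN_water, 86.9, 78.3 and 112 CPM in Control_captopril and 48.6, 66.7 and 45.5 CPM in Control_water. GN_water was highest, then Control_captopril, Control_water and GN_captopril, and no 2 of the 4 groups overlapped.

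In GN averaged over both treatments Sgk1 had a log2 fold change of 0.04 ± 0.11 (adjusted p = 0.820). That mean joined a rise in GN_water against Control_captopril (log2 fold change 0.66 ± 0.15, adjusted p = 0.00601, 1.58-fold) and a fall in GN_captopril against Control_water (log2 fold change -0.57 ± 0.17, adjusted p = 0.0400). The difference between them was -1.23 ± 0.23 on the log2 scale (adjusted p = 0.00757). While the rise and the difference were called without any 1 library, the fall was not called without Control_water replicate 1 or 2, GN_captopril replicate 1, 2 or 3, or GN_water replicate 3 (adjusted p = 0.0518 to 0.158, log2 fold change -0.64 to -0.39).

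The promoter windows of Sgk1 and Tsc22d3 are shown because both genes are known targets of steroid receptors, which bind the half-site AGAACA, read as TGTTCT on the opposite strand, and palindromes of it. They were picked after the search. Windows of 250 bases before a RefSeq start site (GRCm38.p6) were searched on both strands for the half-site and for a full site, which is GNACA followed after 3 bases by TGTNC, with N for any base. A full site can overlap half-sites. RefSeq windows were matched for 6 of the 9 genes (13 windows: 6 of Sgk1, 3 of Tsc22d3 and 1 each of Scnn1b, Scnn1g, Nr3c2 and Fxyd4). Scnn1a, Hsd11b2 and Nedd4l had no window and were not searched. Of the 13 windows, 4 held the half-site, all of them windows of Sgk1 or Tsc22d3, against 16.1% of all 32851 windows. The full site was in 1, a window of Sgk1, against 0.387%. Windows of 1 gene were counted separately, so these shares are only a description. The windows of Scnn1b, Scnn1g, Nr3c2 and Fxyd4 held neither. The windows shown are the Sgk1 window with the full site (chr10:21993640-21993889, plus strand) and the Tsc22d3 window with a half-site (chrX:140600523-140600772, minus strand), written 5′ to 3′ in gene orientation with matches in capitals. A match is a run of letters, not a bound site, and the reads do not say which start site was used.
Sgk1: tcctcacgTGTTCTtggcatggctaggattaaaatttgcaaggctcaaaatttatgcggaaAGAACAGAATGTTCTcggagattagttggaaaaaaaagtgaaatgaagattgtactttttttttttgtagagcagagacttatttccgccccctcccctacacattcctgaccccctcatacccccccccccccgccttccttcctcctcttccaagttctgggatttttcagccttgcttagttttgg
Tsc22d3: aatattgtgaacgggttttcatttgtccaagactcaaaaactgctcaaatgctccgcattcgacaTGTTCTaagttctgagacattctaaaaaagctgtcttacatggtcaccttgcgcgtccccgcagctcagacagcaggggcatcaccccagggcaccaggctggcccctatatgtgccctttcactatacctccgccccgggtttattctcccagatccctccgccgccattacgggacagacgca

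Nedd4l (chromosome 18, 64887705 to 65217828, plus strand), which encodes NEDD4-2, varied less than Sgk1. It had 98.4, 81.6 and 85.2 CPM in GN_captopril, 101, 94.3 and 94.4 CPM in GN_water, 107, 107 and 124 CPM in Control_captopril and 94.8, 85.0 and 87.5 CPM in Control_water. Control_captopril stood above the other 9 libraries, and the rest overlapped. Its log2 fold change was -0.12 ± 0.06 in GN averaged over both treatments (adjusted p = 0.122, and 0.0296 without GN_captopril replicate 1) and -0.01 ± 0.08 in GN_captopril against Control_water (adjusted p = 0.943). In GN_water against Control_captopril it fell by 0.23 ± 0.08 on the log2 scale (adjusted p = 0.0424), a call lost without Control_water replicate 3, Control_captopril replicate 3 or GN_water replicate 2 or 3 (adjusted p = 0.0511 to 0.171, and a log2 fold change of -0.16 without Control_captopril replicate 3). In GN_captopril against GN_water it was called only without GN_captopril replicate 1 (-0.21, adjusted p = 0.0476, and 0.212 with all libraries).

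Tsc22d3 (chromosome X, 140539528 to 140600659, minus strand) encodes GILZ, a steroid-induced leucine zipper protein that raises ENaC activity. It had 25.5, 27.5 and 32.9 CPM in GN_captopril, 42.7, 43.5 and 54.7 CPM in GN_water, 28.8, 30.0 and 51.4 CPM in Control_captopril and 31.6, 41.3 and 34.8 CPM in Control_water. GN_captopril was below GN_water without overlap, and the high Control_captopril library is replicate 3, the one with the most adrenal cortex transcripts. Its log2 fold change was 0.02 ± 0.14 in GN averaged over both treatments (adjusted p = 0.950), -0.33 ± 0.20 in GN_captopril against Control_water (adjusted p = 0.316) and 0.36 ± 0.19 in GN_water against Control_captopril (adjusted p = 0.175). Without Control_captopril replicate 3 the last value was 0.67 (adjusted p = 0.00389), and without that library and GN_captopril replicate 3 together it was also 0.67 (adjusted p = 0.00224). Without Control_captopril replicate 3 Tsc22d3 was also called in captopril averaged over control and GN (-0.50, adjusted p = 0.0137, and 0.152 with all libraries) and in GN_water against Control_water (0.39, adjusted p = 0.0181, and 0.106 with all libraries). Sgk1 and Tsc22d3 thus had the same signs in both pairs, and their log2 levels had a Pearson r of 0.772 over the 12 libraries, which share their group means.

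Fxyd4 (chromosome 6, 117933559 to 117937692, minus strand), a small collecting duct protein that modulates the sodium pump, had 21.7, 18.4 and 28.2 CPM in GN_captopril, 28.2, 22.3 and 34.3 CPM in GN_water, 20.1, 17.1 and 16.5 CPM in Control_captopril and 18.3, 29.9 and 26.9 CPM in Control_water. Libraries of a group were spread widely, and GN_water lay above Control_captopril without overlap. Fxyd4 had a log2 fold change of 0.26 ± 0.14 in GN averaged over both treatments (adjusted p = 0.181) and -0.13 ± 0.20 in GN_captopril against Control_water (adjusted p = 0.710). It was higher in GN_water against Control_captopril (log2 fold change 0.65 ± 0.19, adjusted p = 0.0226), a call lost without Control_captopril replicate 2 or 3 or GN_water replicate 1 or 3 (adjusted p = 0.0661 to 0.129). Without Control_water replicate 1 Fxyd4 was called in captopril averaged over control and GN (-0.49, adjusted p = 0.0316, and 0.107 with all libraries) and in Control_captopril against Control_water (-0.66, adjusted p = 0.0172, and 0.0889 with all libraries).

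**Figure D2:**
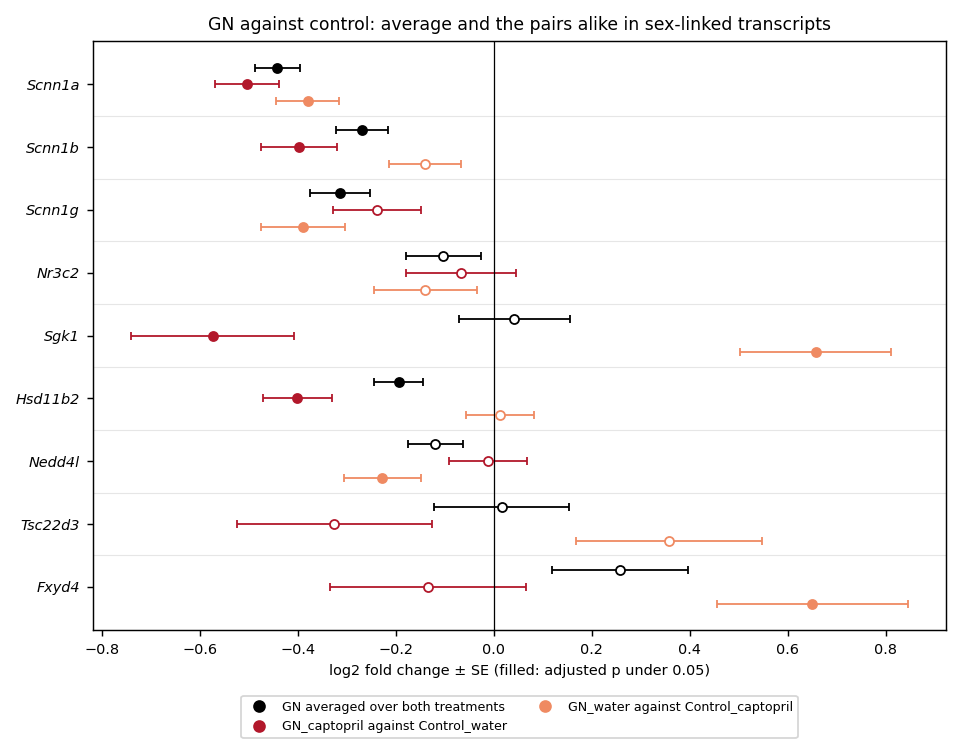
Log2 fold change ± SE (x axis) of the 9 genes in GN against control, averaged over both treatments (black) and in the pairs alike in sex-linked transcripts (GN_captopril against Control_water in red, GN_water against Control_captopril in orange), with filled points for adjusted p under 0.05. Scnn1a lies left of 0 in all 3, while Sgk1 lies at -0.57 in the first pair and at 0.66 in the second.

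Counted over the 9 genes, 4 passed the test in GN averaged over both treatments (Scnn1a, Scnn1b, Scnn1g and Hsd11b2), all lower, where 14.6% of all genes tested were lower and 16.3% higher. The median log2 fold change of all 9 was -0.12, against -0.01 over all genes. In GN_captopril against Control_water 4 passed (Scnn1a, Scnn1b, Sgk1 and Hsd11b2), all lower, with 5.02% of all genes lower and 7.05% higher. In GN_water against Control_captopril 3 were lower (Scnn1a, Scnn1g and Nedd4l) and 2 higher (Sgk1 and Fxyd4), with 13.2% of all genes lower and 16.9% higher. Averaged over control and GN, captopril-labelled libraries had 2 called genes, both lower: Sgk1 (log2 fold change -0.62 ± 0.11, adjusted p = 0.00757) and Hsd11b2 (-0.21 ± 0.05, adjusted p = 0.0271), with 3.34% of all genes lower and 3.17% higher. Ren1 had a log2 fold change of 0.14 ± 0.15 in that average (adjusted p = 0.598).

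Pairs of groups with the same disease state or the same treatment compared libraries that carry Y-linked transcripts with libraries that carry Xist. In each such pair the called genes all moved in 1 direction. In GN_water against Control_water, though, only 2 of 9 were called, where 27.4% of all genes were higher and 23.9% lower. GN_captopril against Control_captopril had 7 of 9 lower (Scnn1a, Scnn1b, Scnn1g, Nr3c2, Sgk1, Hsd11b2 and Nedd4l), against 19.3% of all genes lower and 20.5% higher, with a log2 fold change of -0.89 ± 0.07 for Scnn1a (adjusted p = 3.25e-07), -0.74 ± 0.08 for Scnn1b, -0.79 ± 0.09 for Scnn1g and -1.36 ± 0.16 for Sgk1. The call of Nr3c2 was lost without Control_captopril replicate 1 (adjusted p = 0.0548). GN_captopril against GN_water, which asks what the drug changed in disease, had 6 of 9 lower (Scnn1a, Scnn1b, Scnn1g, Sgk1, Hsd11b2 and Tsc22d3), against 25.5% of all genes lower and 19.6% higher. Sgk1 fell most there (log2 fold change -2.02 ± 0.16, adjusted p = 7.93e-07, 0.247 times the GN_water level), Scnn1a by 0.51 ± 0.07 on the log2 scale and Tsc22d3 by 0.71 ± 0.20 (adjusted p = 0.00957, and 0.0598 without GN_water replicate 3).

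In controls the called genes were higher under the captopril label. Control_captopril against Control_water had 6 of 9 higher (Scnn1a, Scnn1b, Scnn1g, Nr3c2, Sgk1 and Nedd4l), against 15.4% of all genes higher and 17% lower, with 0.39 ± 0.07 for Scnn1a, 0.55 ± 0.09 for Scnn1g and 0.79 ± 0.16 for Sgk1 on the log2 scale (adjusted p = 5.14e-04, 2.80e-04 and 0.00197). Nr3c2 was not called without Control_water replicate 2 or 3 or Control_captopril replicate 1 or 2 (adjusted p = 0.0783 to 0.150) or by DESeq2 (0.0674). GN_water against Control_water had 2 of 9 higher, against 27.4% of all genes higher and 23.9% lower: Sgk1 (log2 fold change 1.44 ± 0.16, adjusted p = 7.92e-06) and Scnn1b (0.20 ± 0.07, adjusted p = 0.0389). Scnn1b was not called there without any 1 of the 3 Control_water libraries or GN_water replicate 1 or 2 (adjusted p = 0.0528 to 0.274, and a log2 fold change of 0.12 without GN_water replicate 1), and Scnn1a had 0.01 ± 0.07 (adjusted p = 0.947).

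**Figure D3:**
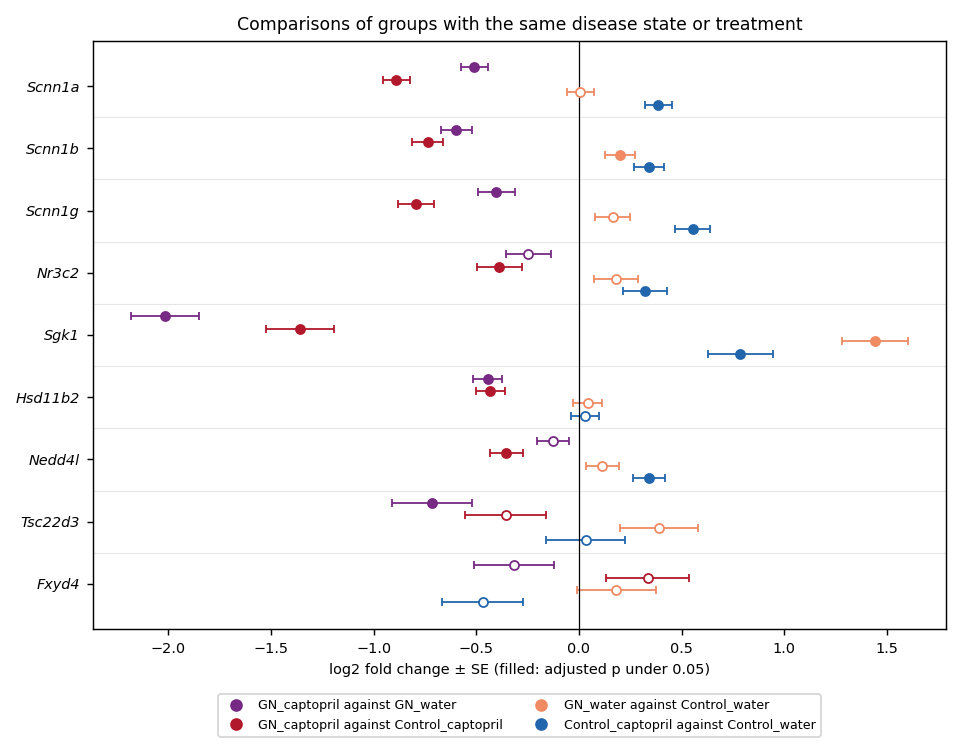
Log2 fold change ± SE (x axis) of the 9 genes in the 4 comparisons of groups with the same disease state or the same treatment, with filled points for adjusted p under 0.05. GN_captopril lay below GN_water and below Control_captopril for the 3 ENaC subunits, Sgk1 and Hsd11b2, while the points of Control_captopril against Control_water lie right of 0 for Scnn1a, Scnn1b, Scnn1g and Sgk1.

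The interaction, the GN difference with captopril minus the GN difference with water, was past the threshold for 8 of 9 genes, all lower, where 27.1% of all genes were lower and 23.6% higher. It was -2.80 ± 0.23 for Sgk1 (adjusted p = 3.74e-07) and -0.90 ± 0.09, -0.94 ± 0.11 and -0.96 ± 0.12 for Scnn1a, Scnn1b and Scnn1g on the log2 scale. Fxyd4 was the exception, with 0.15 ± 0.28 (adjusted p = 0.672). Marker genes of distal tubule cells had a like direction. Of the principal cell list 6 of 9 passed, all lower (median -1.02). All 8 genes of the distal convoluted and connecting tubule list were lower (median -1.99). The intercalated cell list had 10 of 10 lower (median -1.46), so the direction was not particular to principal cells. Proximal tubule genes went both ways, with 4 of 9 higher and 4 lower (median -0.05). Of all genes 27.1% were lower, with a median of -0.07. The call of Tsc22d3 (-0.75 ± 0.27, adjusted p = 0.0367) was lost without any 1 of Control_water replicates 1 and 3, GN_captopril replicates 1 and 2, Control_captopril replicate 3 and the 3 GN_water libraries (adjusted p = 0.0506 to 0.112), and was -0.43 without Control_captopril replicate 3.

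The wider aldosterone pathway was examined with lists of genes known to act in it, chosen with earlier results of these data known. In GN averaged over both treatments, 1 of 17 genes of aldosterone signalling and its targets was higher and 3 were lower (median log2 fold change -0.07), where 16.3% of all genes were higher and 14.6% lower (median -0.01), so the list was called no more often than all genes. The same shares of all genes stand beside each list count of GN averaged over both treatments that follows. Edn1, the endothelin that restrains collecting duct sodium uptake, was higher (0.99 ± 0.15, adjusted p = 3.54e-04), while the transcription factor Zbtb16 (-1.60 ± 0.39) and the receptor coactivators Ncoa1 (-0.24 ± 0.06) and Ncoa2 (-0.22 ± 0.07) were lower. Zbtb16 averaged 1.31 CPM in GN_captopril, 4.38 in GN_water, 13.5 in Control_captopril and 3.95 in Control_water. Its highest level, 22.9 CPM, was in Control_captopril replicate 3, the library with the most adrenal cortex transcripts. Of the 20 genes that control SGK1, NEDD4-2 and the WNK kinases 1 was higher and 5 were lower (median -0.08). They included Wnk1 (-0.49 ± 0.07) and Wnk4 (-0.28 ± 0.06), kinases that govern distal salt transport, Klhl3, the adaptor that marks them for degradation (-0.72 ± 0.09, adjusted p = 7.78e-05), and the deubiquitinase Usp10 (-0.21 ± 0.04). Control_captopril stood apart for Klhl3 (32.4 to 37.7 CPM, and 9.54 to 18.1 in the other groups) and Wnk1 (701 to 723, and 322 to 473).

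Among the 12 proteases and inhibitors that can act on ENaC 1 was higher and 3 were lower (median 0.02), close to the shares of all genes. Serpine2, a serine protease inhibitor, was higher (0.44 ± 0.06, adjusted p = 1.72e-04), and the proteases Tmprss2 (-0.24 ± 0.04), Klk1 (-0.25 ± 0.05) and Plat (-0.20 ± 0.06) were lower. Of 11 tested genes of 12 listed for sodium and potassium transport 1 was higher and 6 were lower (median -0.23). Fxyd5, a sodium pump regulator, was higher (0.95 ± 0.07, adjusted p = 1.43e-06), and the basolateral potassium channel genes Kcnj16 (-0.45 ± 0.05) and Kcnj10 (-0.44 ± 0.06) and the thiazide-sensitive cotransporter Slc12a3 (-0.61 ± 0.08) were lower. Genes induced by glucocorticoids went both ways: of 11, Ddit4 (0.64 ± 0.09) and Mt2 (0.49 ± 0.13) were higher and Zbtb16, which the list of aldosterone targets also holds, was lower (median 0.05). Ren1 was lower (-1.45 ± 0.15, adjusted p = 1.45e-05).

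**Figure D4:**
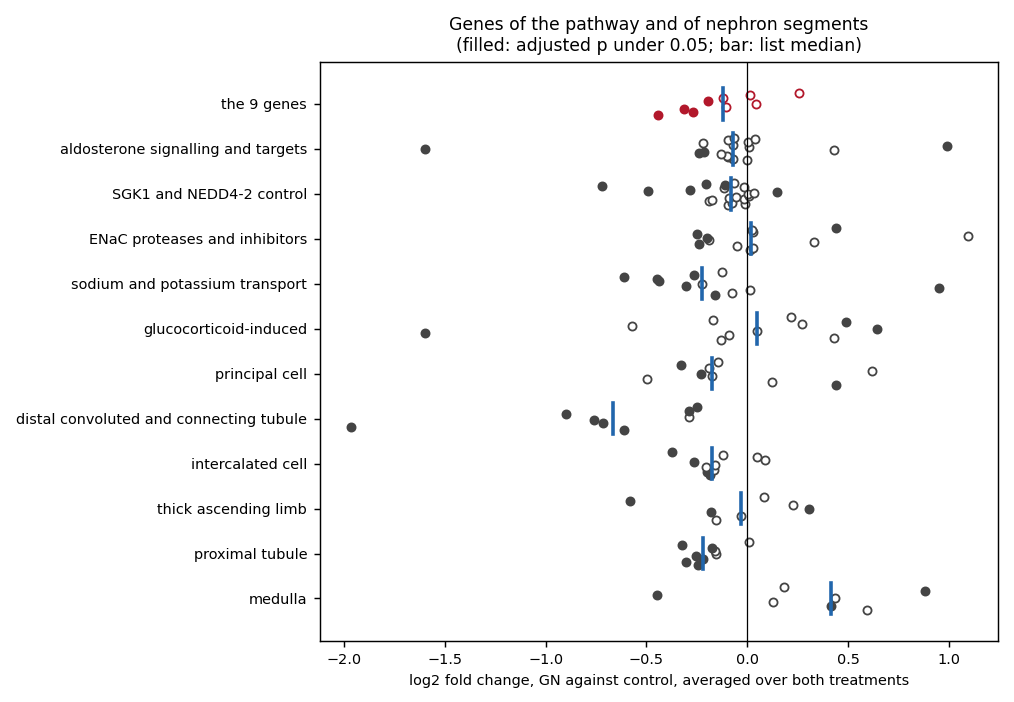
Log2 fold change in GN against control, averaged over both treatments (x axis), of each tested gene of the 9 members, of the pathway lists and of the nephron segment lists, with filled points for adjusted p under 0.05 and a bar at each list's median. The bar lies at -0.12 for the 9 genes and at -0.66 for the distal convoluted and connecting tubule.

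Markers of the tubule cells were set beside these results. Principal cell markers (9 genes) summed to 717 to 756 CPM in GN_captopril, 1192 to 1417 in GN_water, 1186 to 1381 in Control_captopril and 834 to 912 in Control_water. The sum was thus higher in the libraries with Xist and overlapped between GN_water and Control_captopril. In GN averaged over both treatments 1 of the 9 was higher and 2 were lower (median -0.18): Aqp2, the vasopressin-regulated water channel, was higher (0.44 ± 0.13, adjusted p = 0.0216), and the transcription factors Tfcp2l1 (-0.33 ± 0.05) and Gata3 (-0.23 ± 0.06) were lower. Aqp2 averaged 136 ± 21.6 CPM in GN_captopril, 282 ± 53.0 in GN_water, 136 ± 15.5 in Control_captopril and 154 ± 43.1 in Control_water (SD, n = 3 each). Aqp2 was thus highest in GN_water, as was Sgk1, while the ENaC subunits were highest in Control_captopril. By group mean the other principal cell markers were divided too: Npnt and Aqp3 were highest in GN_water, and Aqp4 and Tfcp2l1 in Control_captopril.

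Of 8 genes of the distal convoluted tubule and the connecting tubule, which itself holds ENaC, 7 passed, all lower (median -0.66). Among them were Pvalb (-1.97 ± 0.21), Slc8a1 (-0.90 ± 0.10) and Trpm6 (-0.76 ± 0.09). The list summed to 2398 to 2652 CPM in GN_captopril, 3934 to 4580 in GN_water, 5621 to 6378 in Control_captopril and 2760 to 3178 in Control_water. By pair, 7 of the 8 were lower in GN_water against Control_captopril (median -0.94), where 13.2% of all genes were lower. In GN_captopril against Control_water 1 was lower (median -0.27), against 5.02% of all genes. Pvalb had 33.8 to 39.4 CPM in Control_captopril, 4.03 to 6.66 in GN_water and at most 1.22 in GN_captopril and Control_water. Intercalated cell genes, the neighbours of principal cells, had 4 of 10 called, all lower (median -0.17), with Insrr at -0.37 ± 0.09, Slc26a4, the chloride and bicarbonate exchanger pendrin, at -0.26 ± 0.07, Atp6v1g3 at -0.18 ± 0.05 and Atp6v0d2 at -0.20 ± 0.07. Of the thick ascending limb genes 1 of 7 was higher (Cldn16, 0.31 ± 0.07) and 2 lower (Egf, -0.58 ± 0.09, and Cldn10, -0.18 ± 0.06), and of the proximal tubule genes 6 of 9 were called, all lower, with Hnf4a at -0.32 ± 0.04, Cubn at -0.30 ± 0.06, Lrp2 at -0.25 ± 0.06 and Slc34a1 at -0.22 ± 0.06. Proximal tubule markers summed to 9607 to 15771 CPM over all libraries, the highest of the segments listed.

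Markers of the medulla, which lies below the cortex, summed to 227 to 294 CPM in GN_captopril, 333 to 542 in GN_water, 274 to 395 in Control_captopril and 289 to 438 in Control_water. In GN averaged over both treatments Slc14a1 (0.88 ± 0.28) and Akr1b3 (0.41 ± 0.13) were higher and Slc5a3 lower (-0.45 ± 0.15), 3 of 7 genes. In GN_water against Control_captopril, where Sgk1 and Fxyd4 rose, 5 of the 7 were higher, against 16.9% of all genes higher and 13.2% lower. Immune cell markers rose with GN: 8 of 8 macrophage genes, 6 of 6 T and natural killer cell genes, 4 of 5 B and plasma cell genes and 3 of 3 tested of 5 neutrophil genes were higher. The macrophage list summed to 567 to 1122 CPM in GN_captopril and 1178 to 1665 in GN_water, against 154 to 229 in Control_captopril and 188 to 202 in Control_water. The part of tubule cell number, section depth, immune cells and sex-linked differences in the changes of the 9 genes was not tested.

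**Figure D5:**
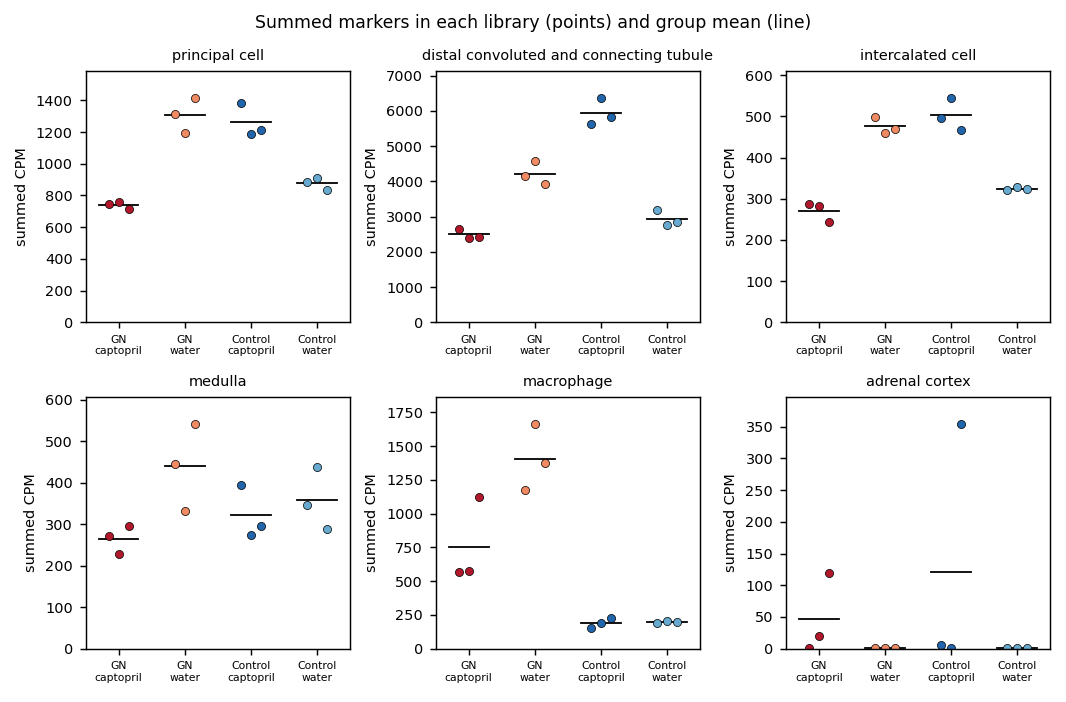
Summed CPM (linear axis from 0) of 6 marker lists in the 12 libraries, with 1 point per library and a line at the group mean. The sums of principal cell, distal convoluted and connecting tubule and intercalated cell markers are higher in GN_water and Control_captopril than in GN_captopril and Control_water. Single principal cell markers do not all follow their sum. Adrenal cortex transcripts stand out in Control_captopril replicate 3.

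Genes with the most similar profile over the 12 libraries were listed for each member as a description, since the 4 group means drive these correlations. Scnn1a was most like Rhcg and Rhbg, ammonia transporters of the collecting duct, with Pearson r of 0.986 and 0.973, and like Bicd2 (0.980). Within groups, after the group means were removed, r was 0.628 for Rhcg, 0.465 for Rhbg and 0.713 for Bicd2. Scnn1b was most like Plekhd1 (0.981), Srgap1 (0.973) and Plagl1 (0.961), and Scnn1g like Fam168a (0.975), the basolateral potassium channel gene Kcnj10 (0.972) and Grb14 (0.972). For Sgk1 they were Igfbp7 (0.984), Adamts8 (0.970) and Prss53 (0.967), and those of Hsd11b2 included Ulk4 (0.911) and Armc6 (0.896). Within groups r with Hsd11b2 was 0.42 for Ulk4 and 0.0748 for Armc6.

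For the genes named with Nr3c2, Nedd4l, Tsc22d3 and Fxyd4 r within groups was 0.722 to 0.947, and for those of Scnn1b it was 0.776 to 0.920. It was 0.6955 to 0.9141 for those of Scnn1g and 0.654 to 0.847 for those of Sgk1. All were picked by r over the same 12 libraries, so the values within groups are also only a description. Nr3c2 was most like Arfgef3 (0.949), Cyp4a14 (0.938) and Vps33b (0.930), and Nedd4l like Mynn (0.952), Nkain1 (0.931) and Gldc (0.930). Tsc22d3 was closest to Ttpal (0.950, and 0.947 within groups), Dpm2 (0.928) and Vmn1r58 (0.920). Fxyd4, a short transcript, was closest to Mrpl33 and Fis1, nuclear genes of mitochondrial proteins, with r of 0.932 and 0.922 and of 0.936 and 0.897 within groups, and to Rhof (0.913).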

How the data were processed

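RNA of 12 kidney cortex libraries was analysed, grouped by the disease and treatment labels alone. The authors deposited estimated counts of reads per gene symbol, not scaled for depth, of which 86.4% were whole numbers, and they were rounded before testing. A deposited RPKM table was not used. Bowtie2, Partek and mm10 are named, per the submitters' processing notes, without versions or roles. Counts were filtered with filterByExpr (minimum count 10, minimum total 15; 14618 genes kept), scaled by TMM, and a mean for each group was fitted to all 12 libraries together by quasi-likelihood in edgeR 4.0.16 (R 4.3.3). The SE was taken from the log2 fold change and its F statistic. P-values are two-sided and were Benjamini-Hochberg adjusted across the whole table, with a threshold of 0.05. The fit was tested on simulated data. CPM use TMM-adjusted totals, and exon lengths came from GENCODE vM21. Likeness used log2(CPM + 0.1) of genes with a mean of at least 1 CPM, without predicted genes. The 3 most alike genes are named for each member, except 1 that is not reported here. Alternatives were RLE size factors, no filter on low counts, DESeq2 1.42.0, a replicate block, leaving out each library, and leaving out the 2 libraries richest in adrenal transcripts.

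The members, the 19 other lists (154 symbols), the pairs of groups alike in sex-linked transcripts and the alternatives were chosen with earlier results of these data known. Named list genes are up to 4 called genes with the smallest adjusted p in GN averaged over both treatments. The replicate numbers follow accession order and the ascending numbers of the titles. Replicates of a group differed by more than counting error (their chi-squared was 5.33 to 14.5 times its degrees of freedom).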

Additional observations from a re-analysis of the deposited data

Results flagged for a closer look

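The GN difference differed between captopril-labelled and water-labelled libraries for 8 of the 9 genes by the interaction term (edgeR, all past the threshold, GN difference with captopril minus that with water). On the log2 scale it was -0.90 for Scnn1a, -0.94 for Scnn1b, -0.96 for Scnn1g, -0.57 for Nr3c2, -2.80 for Sgk1, -0.47 for Hsd11b2, -0.47 for Nedd4l and -0.75 for Tsc22d3. These values cannot be told apart from a difference between libraries with Y-linked transcripts and libraries with Xist.

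Between the pairs alike in sex-linked transcripts, the GN difference in GN_captopril against Control_water minus that in GN_water against Control_captopril was past the threshold for Sgk1 (-1.23 on the log2 scale) and Hsd11b2 (-0.41). Ren1 was high in GN_captopril and Control_water and low in GN_water and Control_captopril. The sum of principal cell markers was lower in GN_captopril (717 to 756 CPM) and Control_water (834 to 912) than in GN_water (1192 to 1417) and Control_captopril (1186 to 1381). Single markers did not all follow the sum. In Control_captopril against Control_water 5 of the 9 were called higher and 1 lower, against 15.4% of all genes higher and 17% lower. The part of principal cell markers in the differences of Sgk1 and Hsd11b2 was not tested. The differences of Sgk1 and Hsd11b2 also rest on the labels of the 2 control groups, which Ren1 goes against.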

How the results depend on the processing

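Of 81 values (9 genes in 9 comparisons), 64 kept their side of the threshold under all 17 alternatives, and no called value changed sign. In GN_water against Control_water the number of the 9 genes called was 2, and 1 with RLE size factors, without the filter on low counts and with DESeq2, because Scnn1b was not called (adjusted p = 0.0632, 0.0508 and 0.0881). It was 1 to 3 when 1 library was left out. For captopril averaged over control and GN it was 2, and 1 to 3 with 1 library left out, and all genes called were 952, and 523 to 1471 (523 to 627 without any 1 of Control_captopril replicates 1 and 3, Control_water replicates 2 and 3, GN_captopril replicate 1 and GN_water replicate 3, and 1471 without Control_water replicate 1). In GN_water against Control_captopril it was 5, and 3 to 5. In GN_captopril against Control_water all genes called were 1765, and 968 to 1708 with 1 library left out (968 without GN_captopril replicate 3 and 975 without Control_water replicate 2), and 938 without both libraries rich in adrenal transcripts, a fit with fewer samples. Without those 2 libraries Sgk1 in that comparison (adjusted p = 0.0548), Hsd11b2 in the captopril average (0.0880) and Nedd4l and Fxyd4 in GN_water against Control_captopril (0.169 and 0.0505) were not called. Tsc22d3 was newly called in 3 comparisons. With a replicate block Tsc22d3 was called in the captopril average (log2 fold change -0.36, adjusted p = 0.0487) and in GN_water against Control_water (0.37, 0.0389), and no other call of the 9 genes changed. Libraries with the same number did not deviate together (r of deviations -0.235 to 0.236). Nr3c2 had the fewest counts of the 9 genes, 141 to 317 in a library.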
